A study of Mus musculus with 2 samples.

Results

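Ribosomal protein genes encode the proteins of the cytosolic ribosome and were analyzed here as a group in single thymic cells. Members were the genes whose symbols begin with Rps or Rpl and a number, together with Rpsa, Rplp0, Rplp1 and Rplp2, without the Rps6k kinases. They came to 91 of the 32285 genes counted, and comprised 31 core genes of the small subunit, 46 core genes of the large subunit, 8 paralogs, 5 genes named as pseudogenes, and Rps19bp1, which encodes a protein that binds Rps19 and is not a ribosomal subunit. Membership rested on the gene symbol alone, although the members were chosen with earlier results of these data known.

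The small subunit decodes the mRNA and the large subunit joins amino acids, and each is built from ribosomal RNA and a fixed set of proteins. Most core ribosomal proteins are needed in the same copy number per ribosome, and their mRNAs carry a terminal oligopyrimidine (TOP) motif at the 5′ end through which mTOR signaling controls their translation. In thymocytes, demand for ribosomes is high during the proliferative steps of development, and several members are known for roles there: loss of Rpl22 arrests αβ T cell progenitors, and free Rpl5 and Rpl11 bind Mdm2 and thereby stabilize p53.

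Cells came from thymi of Kidins220 T-KO mice (Kidins220 floxed alleles deleted by a Cre under the proximal Lck promoter, active from the DN2 stage on) and of Ctrl mice, all C57BL/6. From each genotype, 4 thymi were pooled, and stage 0 iNKT cells (TCRβ+ CD1dt+ CD24+ NK1.1-) and stage 3 iNKT cells (TCRβ+ CD1dt+ NK1.1+ CD24- CD44+) were sorted from the pool, which was done 2 times in parallel. The 8 populations were marked with hashtag antibodies, combined, and sequenced as 1 droplet library read from the 5′ end of transcripts and 1 hashtag library. The hashtag UMIs lay, at 99.9%, on rows 11 to 18 of the 20 hashtag rows in the counts, whereas the labels number the hashtags from 1 to 8. Which population each of these rows stands for is stated nowhere in the labels or the methods. Rows were not assigned to a stage or genotype from the levels of their genes, the rows are called by their numbers, and T-KO was not compared with Ctrl.

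Of 16179 barcodes, 12147 had at least 1000 genes and at most 5% mitochondrial UMIs, and 10007 of these carried 1 hashtag and were kept. The odd rows 11, 13, 15 and 17 held 1176, 1601, 889 and 583 cells with medians of 6743, 7173, 8068 and 6500 gene UMIs per cell. The even rows 12, 14, 16 and 18 held 1752, 2162, 577 and 1267 cells with medians of 3313, 3258, 3804 and 3663. Cells of the even rows were thus about 2 times shallower, which is taken up below. As no source pairs the rows with populations, values are given per row and intervals cover counting error only. Apart from a search for outlying rows, given further below, no test between rows was run.

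The odd and even rows differed in what cells they held. The stage 3 iNKT1 list, among them Nkg7, Il2rb and Klrb1c, summed to 206 to 268 counts per 1000000 UMIs (CPM) in the odd rows and to 3557 to 4016 CPM in the even rows. Of the genes of the sorting markers, Klrb1c, which encodes NK1.1, was at 4.78 to 6.57 against 328 to 444 CPM, Cd44 at 40.7 to 90.4 against 143 to 163 CPM, and Cd24a at 313 to 365 against 23.3 to 34.2 CPM. The stage 0 iNKT list summed to 981 to 1542 CPM in the odd and 309 to 355 CPM in the even rows, and its member Zbtb16, an iNKT factor gene, ran against the sum with 4.72 to 7.41 and 64.7 to 74.7 CPM. Lists of DP and DN thymocytes were higher in the odd rows too, with 436 to 660 against 67.6 to 86.9 CPM and 180 to 223 against 58.3 to 81.5 CPM. The DP sum was led by Dntt, and its member Cd4 did not follow it, at 9.25 to 25.8 against 23.5 to 31.5 CPM. B cell markers, led by Cd74, summed to 6142 to 17274 CPM in the odd rows and to 300 to 680 CPM in the even ones, and dendritic and myeloid markers to 3826 to 11022 against 342 to 516 CPM. The odd rows therefore were mixtures, while 3.91% of the cells of the even rows fell in one of the 4 gene-defined classes used further below. In such sums, fewer cells of a type and less RNA per cell cannot be told apart.

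The reading of single members depends on sequence, because some are near copies of others. Rps27 (chr3:90212522-90213651, minus strand, GRCm38) encodes a zinc finger protein of the small subunit. Its copy Rps27rt (chr9:114982366-114982739, minus strand) was identical to it at 341 of 341 aligned transcript positions. Rps27l (chr9:66946086-66949516, plus strand) encodes a paralogous protein that is known as a p53 target, and matched Rps27 at 77.8% of 230 aligned positions. The 30 bases around the annotated RefSeq start sites (GRCm38.p6, 15 before and 15 from the start on) are shown for this trio. In the first pair, capitals mark the stretch that both windows share, and in Rps27l nothing is marked.
Rps27, chr3:90213634-90213663, minus strand: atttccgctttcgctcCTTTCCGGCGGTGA
Rps27rt, chr9:114982725-114982754, minus strand: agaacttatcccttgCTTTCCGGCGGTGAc
Rps27l, chr9:66946071-66946100, plus strand: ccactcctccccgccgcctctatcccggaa

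The shared stretch begins within 2 bases of the annotated start and continues into the transcripts, so that a read from the 5′ end of Rps27 can also be placed on Rps27rt. In longer windows, from 15 bases before to 50 bases after the start, the common run was 38 bases. By contrast, the window of Rps27l holds no such run, and its reads can be told from those of Rps27 where the 2 transcripts differ. The same limit as for Rps27rt held for Rpl10 and Rpl10-ps3, identical at 737 of 737 positions, and for Rpl9 and Rpl9-ps6, identical at 691 of 692. Values of these pairs were therefore also summed.

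Start sites of the members were alike beyond these copies. RefSeq start-site sequences were at hand for 66 members, 57 of them core genes. CTTTC, a pyrimidine run of the kind found in TOP starts, lay on the gene strand within 50 bases of the start in 29 of 57 core genes (50.9%), against 12.6% of all 27025 genes with such a sequence. CGGAAG or its reverse complement CTTCCG, the core of ETS factor sites, occurred within the 300-base window in 40 of 57 (70.2%), against 17.2% of all genes. GCCATC, letters from YY1 sites, occurred in 12 of 57 (21.1%), against 14.1% of all genes. CTTTC was present in 18 of 35 core genes that were higher in the even rows and in 2 of 5 that were lower. The comparison behind this split is given further below, and 5 lower genes are too few to tell whether CTTTC followed it. A match is a description of letters and shows no binding. The windows of Rpl28, Rpl7a, Rps25 and Rps21 are shown with every CTTTC in capitals, overlapping matches included.
Rpl28, chr7:4792950-4792979, plus strand: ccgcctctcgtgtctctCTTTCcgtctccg
Rpl7a, chr2:26910792-26910821, plus strand: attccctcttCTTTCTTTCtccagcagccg
Rps25, chr9:44407699-44407728, plus strand: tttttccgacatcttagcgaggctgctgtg
Rps21, chr2:180257364-180257393, plus strand: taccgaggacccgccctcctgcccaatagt

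Rpl28, Rpl7a and Rps25 were lower in the even rows, and the first pair carries the run while Rps25 lacks it in this window. Rps21, which lacks it as well, was among the members with the highest even to odd ratio.

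Ribosomal protein genes took 21.1% of the 59024792 gene UMIs of the kept cells. All 77 core genes reached 20 CPM, from 527 CPM for Rpl10 to 6884 CPM for Rpl13, with a median of 2428 CPM. A UMI counts a transcript once whatever its length, and levels of different genes are given without division by length. The highest members were Rpl13, Rpsa, Rps24, Rplp0 and Rps2, and Rpl10, Rpl31, Rpl23a and Rps25 were among the lowest core members. Rpl10 was low only as a separate entry, since Rpl10-ps3 stood at 1443 CPM. Of the other 14 members, 8 reached 20 CPM and 6 did not, and 3 of these 6, Rpl10l, Rpl36-ps4 and Rpl9-ps1, had no UMI in any kept cell.

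The share of ribosomal UMIs was higher in the even rows. It was 18.1%, 20.1%, 20.0% and 20.4% in rows 11, 13, 15 and 17, and 24.6%, 24.0%, 23.4% and 22.8% in rows 12, 14, 16 and 18. Every even row lay above every odd row, and the counting intervals, such as 18.0 to 18.1% for row 11, were narrow against this gap. The means over rows were 19.7% and 23.7%, a difference of 4.01 percentage points. The median cell gave the same order, with 17.6 to 20.7% in odd rows and 23.1 to 24.9% in even rows.

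Small subunit genes accounted for more of this difference than large subunit genes. The small subunit core took 8.31 to 9.34% of UMIs in odd rows and 10.8 to 11.7% in even rows, a difference of means of 2.25 points. The large subunit core took 9.24 to 10.5% and 11.4 to 12.2%, a difference of 1.67 points. As a result, the ratio of small to large subunit UMIs was 0.887 to 0.900 in odd rows and 0.946 to 0.962 in even rows. Mitochondrial ribosomal proteins, which are encoded in the nucleus and build the ribosome of the mitochondrion, went the other way, with 0.638 to 0.817% in odd rows and 0.515 to 0.557% in even rows.

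**Figure D1:**
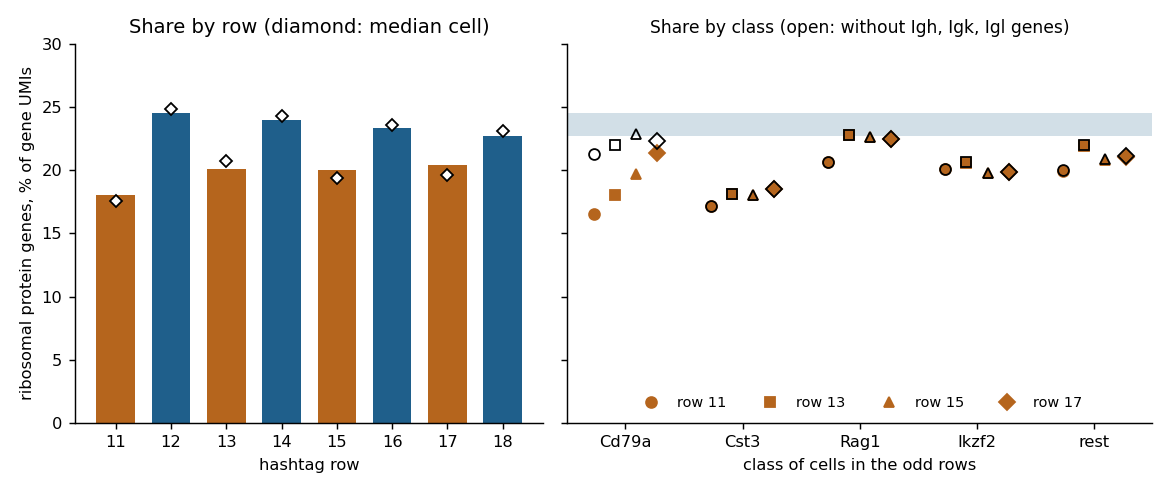
Left, percent of gene UMIs on ribosomal protein genes in each hashtag row (bars; odd rows brown, even rows blue), with the median cell as a diamond. Right, the same percent in 5 classes of cells of the odd rows, 1 symbol per row, filled for all genes and open without immunoglobulin genes, and a blue band for the range of the even rows. Even rows reach 22.8 to 24.6% and odd rows 18.1 to 20.4%, and open and filled symbols part mainly in the Cd79a class.

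Depth moved with the share and differed between the rows, so the share was also computed within depth ranges. Among cells of 3000 to 5000 UMIs, it was 17.6%, 18.7%, 15.8% and 16.9% in rows 11, 13, 15 and 17 and 25.6%, 25.0%, 24.8% and 24.3% in rows 12, 14, 16 and 18. At matched depth, the difference was 7.65 points, wider than without matching. Cells with under 10% ribosomal UMIs, described below, had medians of 2698 to 4023 UMIs in odd rows and 1517 to 1630 in even rows. This depth range may thus hold them in unequal numbers, and their part in the wider difference was not tested. In the odd rows, the share was lowest among shallow cells, as in row 17, where it was 12.3% from 2000 to 3000 UMIs and 21.6% from 8000 UMIs on. Above 8000 UMIs, where the even rows held few cells, row 12 had 19.6% and row 18 had 20.7%, within the range of 18.2 to 21.6% in the odd rows. The higher share of the even rows therefore held for cells of 2000 to 8000 UMIs.

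**Figure D2:**
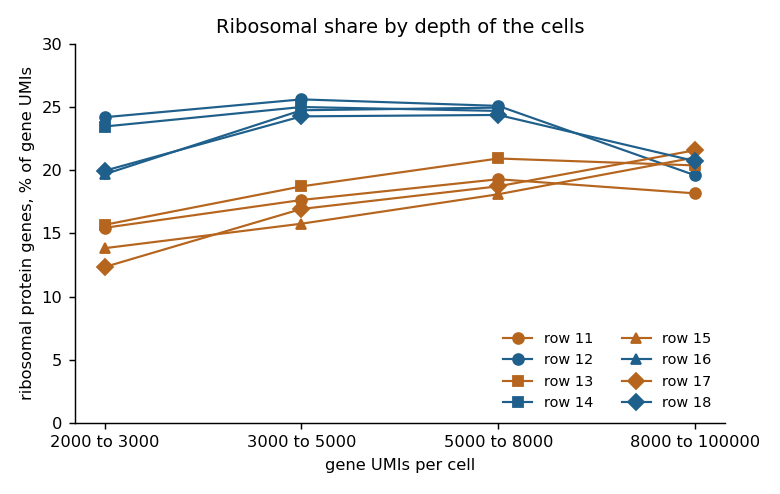
Percent of gene UMIs on ribosomal protein genes (y axis) in cells of 4 ranges of gene UMIs (x axis), 1 line per hashtag row, odd rows brown and even rows blue, points with at least 20 cells. From 3000 to 5000 UMIs the odd rows lie between 15.8% and 18.7% and the even rows between 24.3% and 25.6%, while the lines meet above 8000 UMIs.

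A minority of cells in every row had a very low share. Cells with under 10% ribosomal UMIs made up 10.7%, 11.7%, 13.8% and 12.7% of rows 11, 13, 15 and 17 and 5.08%, 7.17%, 13.3% and 13.8% of rows 12, 14, 16 and 18. Of the even rows, 16 and 18 were thus in the range of the odd rows, and 12 and 14 were below it. In the even rows, these cells were shallow, with medians of 1517 to 1630 UMIs against 3339 to 3962 in the remaining cells, and had more mitochondrial UMIs (3.19 to 3.56% against 1.64 to 1.74%) and more of the nuclear RNA Malat1 (1.71 to 2.02% against 0.454 to 0.597%). Whether damaged cells contribute to them was not tested. Without them the share rose to 19.6 to 21.5% in odd rows and to 23.9 to 25.1% in even rows, and the difference was 3.66 points.

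Single members were then compared between the even and the odd rows. A gene was called higher or lower where all 4 even rows lay above or below all 4 odd rows, among genes with a mean of at least 20 CPM in either set. Of 85 members tested, 51 were higher and 9 lower in the even rows, and 25 overlapped. Over all 7387 genes tested, 28.0% were higher and 36.4% lower, so that the 60.0% of members that were higher exceeded the background and the 10.6% that were lower fell short of it. The median log2 ratio of even to odd rows was 0.22 for members and -0.11 for all genes. The small subunit core gave 23 higher and 2 lower of 31 (median 0.35), and the large subunit core gave 25 higher and 4 lower of 46 (median 0.18).

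The count depends on what each gene is measured against. Set against UMIs outside ribosomal and mitochondrial genes, 56 members were higher and 5 lower (31.9% and 30.2% of all genes), and 91.8% of the called members were higher, compared with 85.0% against all genes. Set against ribosomal UMIs alone, which takes out the move of the group as a whole, 31 were higher and 42 lower, 42.5% higher, where 16.5% of all genes were higher and 55.0% lower. Against these denominators, the median of all genes shifted to -0.03 and -0.38. Among cells of 3000 to 5000 UMIs, 77 members were higher and 1 was lower (13.0% and 40.6% of all genes). Without row 11, 19 members rather than 9 were lower, and 43.5% of all genes were.

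**Figure D3:**
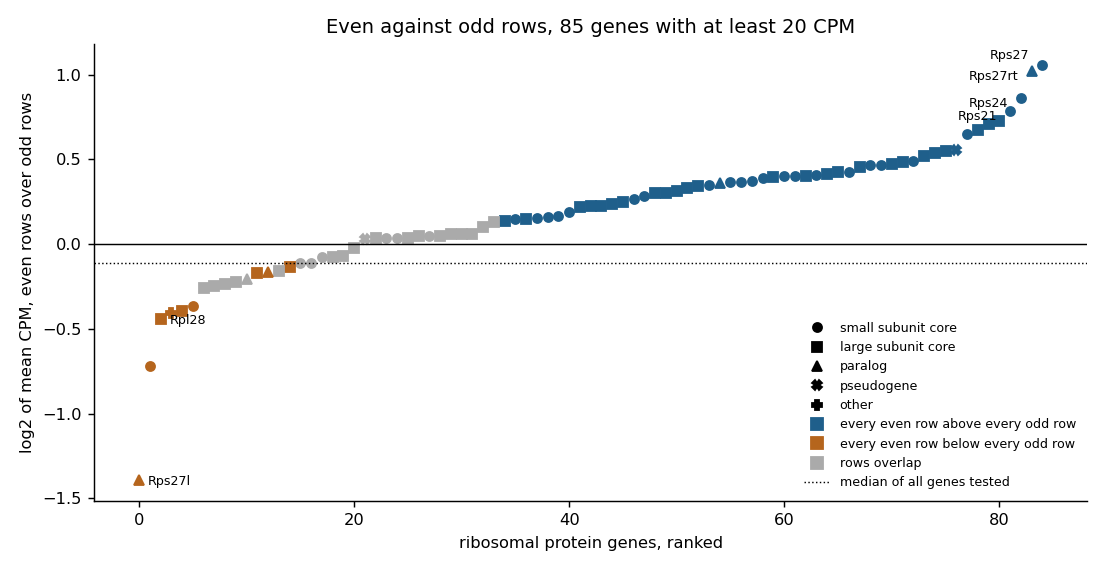
The 85 members with at least 20 CPM, ranked (x axis) by the log2 ratio of mean CPM in even rows to that in odd rows (y axis). Symbols give the kind of gene, blue marks genes with every even row above every odd row, brown the reverse, grey overlap, and the dotted line the median of all genes tested (-0.11). Most members lie above 0, up to 1.06 for Rps27, and Rps27l stands apart at -1.39.

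Rps27 had the highest ratio of the members. It was at 1013, 1080, 931 and 1002 CPM in rows 11, 13, 15 and 17 and at 2323, 2224, 1945 and 1890 CPM in rows 12, 14, 16 and 18. The even rows were thus 2.08-fold higher (log2 1.06) with no overlap. Rps27rt followed at 28.3, 27.9, 23.0 and 23.0 CPM in the odd rows and 59.1, 52.5, 53.0 and 42.5 CPM in the even rows, a 2.03-fold difference. Its level was 2.25 to 2.80% of that of Rps27 in every row. Given the identical sequences, UMIs of Rps27rt cannot be told apart from misplaced UMIs of Rps27, and the sum of both gave the same log2 ratio of 1.06.

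Its paralog Rps27l ran the opposite way and was the member with the lowest ratio. It was at 301, 308, 356 and 372 CPM in rows 11, 13, 15 and 17 and at 129, 116, 145 and 120 CPM in rows 12, 14, 16 and 18, 2.62-fold lower in the even rows. Rps27l therefore amounted to 28.5 to 38.3% of Rps27 in odd rows and to 5.22 to 7.45% in even rows. The sum of both genes was at 1288 to 1387 CPM in odd and 2010 to 2452 CPM in even rows.

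Rps24, the small subunit gene in which mutations cause Diamond-Blackfan anemia, was at 4465, 4660, 4230 and 4270 CPM in the odd rows and at 8748, 8548, 7484 and 7319 CPM in the even rows, 1.82-fold higher. Rps21, of the small subunit, was at 1042, 1104, 1041 and 1091 CPM in the odd rows and at 1989, 1964, 1744 and 1685 CPM in the even rows, 1.73-fold higher. For each of these genes, the even rows lay far outside the range of the odd rows. Rpl38, known for selective translation of Hox mRNAs, Rpl37a, Rpl12 and Rps7 followed with log2 ratios of 0.73, 0.71, 0.67 and 0.65. All kept their direction when set against ribosomal UMIs alone.

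A few core genes were lower in the even rows. Rpl28, a large subunit gene, was at 3128, 3446, 3540 and 3570 CPM in the odd rows and at 2460, 2417, 2658 and 2555 CPM in the even rows, 1.36-fold lower. Over cells of all depths, Rpl28 thus left the direction of the group by more than the spread of the rows. The core genes Rpl7a and Rps25 were lower with log2 ratios of -0.39 and -0.36, as was Rps19bp1, which is no subunit, with -0.41, and Rpl4 and Rpl31 overlapped at -0.26 and -0.25. At 3000 to 5000 UMIs, however, Rpl7a and Rps25 turned to 0.13 and 0.21. Of all members, 77 were higher and 1 was lower at that depth, so that at most 1 of the 9 lower calls held there.

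**Figure D4:**
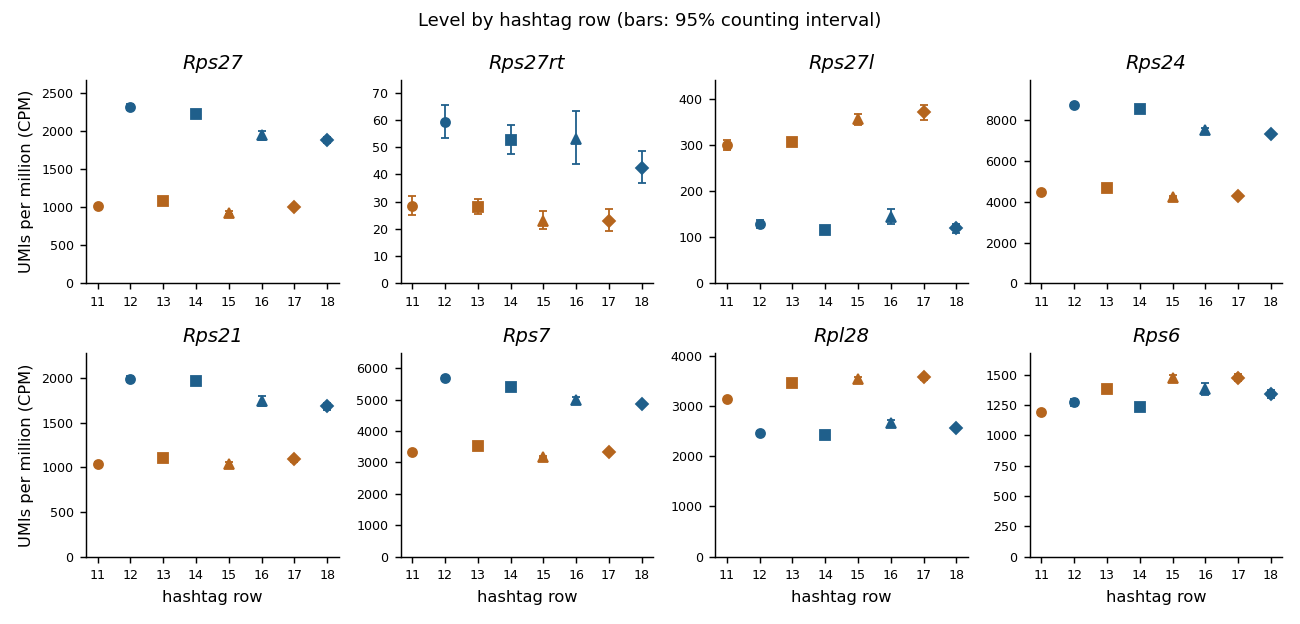
CPM (y axis, from 0) of 8 members in the 8 hashtag rows (x axis), odd rows brown and even rows blue, bars giving the 95% Poisson counting interval. Rps27, Rps27rt, Rps24, Rps21 and Rps7 are higher in every even row, Rps27l and Rpl28 lower, and Rps6 overlaps.

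Other paralog pairs differed less. Rpl22, an RNA-binding protein of the large subunit, was at 1298 to 1429 CPM in odd and 1408 to 1614 CPM in even rows, which overlapped. Its paralog Rpl22l1 was at 498, 615, 614 and 668 CPM in the odd rows and at 807, 780, 733 and 756 CPM in the even rows, 1.29-fold higher. Rpl22l1 thus amounted to 38.3 to 47.1% of Rpl22 in odd rows and to 48.4 to 53.7% in even rows. Rpl36a overlapped and Rpl36al was lower in the even rows (log2 -0.16), but the latter turned to 0.33 at 3000 to 5000 UMIs. Rpl7 and Rpl7l1 overlapped, and so did Rpl3. Rpl39 was higher in the even rows (log2 0.47) and Rps4x as well (0.37). Rpl39l, the paralog of Rpl39, and Rpl3l, that of Rpl3, were too low for comparison at 1.00 and 0.203 CPM.

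The copies changed 1 call. Rpl10 by itself was lower in the even rows (log2 -0.17), and the sum with Rpl10-ps3 was not, at 1913 to 2016 CPM in odd and 1889 to 2006 CPM in even rows. Among cells of 3000 to 5000 UMIs, Rpl10 by itself turned to 0.18. Rpl9 and Rpl9-ps6 were both higher in the even rows, and their sum was as well (log2 0.47).

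Rpsa, the stalk proteins, Rps6, Rpl5 and Rpl11, singled out for their known roles, followed no common course. Rpsa, also known as the laminin receptor, was at 5353 to 6506 CPM in odd and 7491 to 8182 CPM in even rows (log2 0.37), and of the stalk proteins that recruit translation factors, Rplp1 (0.42) and Rplp2 (0.24) were higher in the even rows while Rplp0 overlapped. Rps6, the substrate of S6 kinase, overlapped with 1190 to 1475 against 1235 to 1383 CPM. Rpl5 and Rpl11, which bind Mdm2, overlapped as well, with log2 ratios of 0.10 and -0.07.

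Other genes whose transcripts carry a TOP start were counted as well, 20 that encode proteins, mostly of translation, and 4 noncoding snoRNA host genes. Of the 20, 8 were higher, 6 lower and 6 overlapped (median log2 ratio 0.03), where 28.0% of all genes were higher and 36.4% lower. Of the 4 host genes, Gas5 and Snhg1 were lower and Snhg8 and Snhg12 overlapped. Fau, which encodes the small subunit protein eS30 behind a ubiquitin-like part, had a log2 ratio of 0.55, and Tpt1 and the elongation factor gene Eef1a1 had 0.80 and 0.40. By contrast, the histone chaperone gene Nap1l1 was at 326 to 448 against 121 to 130 CPM (log2 -1.68), Hnrnpa1 at -1.29 and Npm1, a nucleolar chaperone, at -0.79. Of 78 mitochondrial ribosomal protein genes, 1 was higher and 59, or 75.6%, were lower (median -0.53), against the same background. Cycling markers were lower in the even rows too, with summed levels of 235 to 358 against 899 to 1406 CPM, and their part in these values was not tested.

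Since the odd rows were mixtures, their cells were split by the first match of at least 2 Cd79a, 5 Cst3, 1 Rag1 or 2 Ikzf2 UMIs. Cd79a encodes a B cell receptor subunit, Cst3 is high in dendritic cells, Rag1 encodes the recombinase of precursors, and Ikzf2 encodes Helios, found in thymocytes after strong TCR signals. The classes held 810, 972, 418 and 1106 cells, and 943 cells remained. As the rule asks for UMI numbers, it is met more often by deep cells, and 556 cells met more than 1 rule. Median depth in the Cst3 class was 9963 to 11425 UMIs, whereas it was 4611 to 5962 in the Ikzf2 class. The Rag1 class was the deepest in rows 13, 15 and 17, with 14409 to 15274 UMIs, and was at 3685 UMIs in row 11.

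By summed UMIs over all genes, the Rag1 class had the highest and the Cst3 class a low ribosomal share. The Rag1 class stood at 20.6%, 22.8%, 22.7% and 22.5% in rows 11, 13, 15 and 17, above each other class in 4 of 4 rows. Its median cell, however, was at 16.2% in row 11, the lowest of the 5 classes there, and at 22.5 to 22.9% in the other rows. Depth moved with these values. The Cst3 class stood at 17.1%, 18.1%, 18.0% and 18.5%, below the Rag1, Ikzf2 and remaining cells in 4 of 4 rows. The Ikzf2 class stood at 20.1%, 20.6%, 19.8% and 19.8%, and the remaining cells at 19.9%, 21.9%, 20.8% and 21.1%. Against the other cells of the same row, the median difference was 2.96 points for Rag1, -2.51 for Cst3, 0.146 for Ikzf2 and 1.59 for the remaining cells. This order depended on how cells were classed and weighted. With limits of 1 UMI for every class gene, the differences were 0.025, 1.33, -1.48 and -0.681 points in the same order, and with equal weight per cell the remaining cells turned to -0.718, while the Cd79a class, at 2.98 points, exceeded the Rag1 class at 1.68. Among cells of 3000 to 5000 UMIs, the Cst3 class was at -6.09, the Ikzf2 class at -0.262, the remaining cells at -1.69 and the Cd79a class at 4.88 points, and the Rag1 class had fewer than 20 such cells in every row.

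The Cd79a class had the widest spread, and that spread moved with immunoglobulin transcripts. Its ribosomal share was 16.6%, 18.0%, 19.7% and 21.4% in rows 11, 13, 15 and 17. Immunoglobulin genes (symbols starting with Igh, Igk or Igl) took 22.1%, 18.0%, 13.9% and 4.00% of its UMIs in the same order. Without these genes the share was 21.3%, 22.0%, 22.9% and 22.3%, and the median cell of the class was at 21.7%, 21.8%, 22.9% and 22.2%. In rows 11, 13 and 15, the 38, 49 and 12 cells of the class with under 10% ribosomal UMIs had medians of 19024, 15251 and 14317 UMIs, against 6110, 5546 and 5525 in the rest of the class. In row 17, the 5 such cells were shallower, with 2241 against 5554 UMIs. Over all genes, the Cd79a class differed from the other cells by -1.91, -2.61, -0.384 and 1.06 points in rows 11, 13, 15 and 17, so that row 17 went the other way. The median over rows was -1.15 points over all genes and 2.35 points without immunoglobulin genes. Without these genes, the Rag1 class was above it in 2 of 4 rows, rows 13 and 17. Row 11 as a whole, lowest of the odd rows with 18.1%, was at 19.0% without immunoglobulin genes, against 20.3 to 20.9% in the other odd rows.

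The classes differed in single members, counted where a class was above or below the other cells in all 4 rows. In the Rag1 class, 66 of 85 members were higher and 5 lower, where 38.2% and 28.6% of all genes were. In the Cst3 class, 6 were higher and 69 lower, where 23.5% and 48.1% of all genes were. In the Cd79a class, 13 were higher and 35 lower, against 15.0% and 59.1% of all genes. In the Ikzf2 class 15 were higher and 5 lower, against 44.9% and 14.7%, and in the remaining cells 58 and 3, against 38.0% and 16.7%. Hence members of the Rag1 class and of the remaining cells exceeded the background upwards and those of the Cst3 class downwards, while the Ikzf2 class stayed below the background in both directions.

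In the Cd79a class, Rps27 and Rps27l took opposite sides. Rps27 was at 1455, 1739, 1559 and 1717 CPM in this class, with a median of 901 CPM in the other cells (median log2 0.87 over rows). Rps27l was at 151, 144, 172 and 182 CPM, with a median of 363 CPM in the other cells (-1.16). Rps19bp1 was lower too (-0.81). Without immunoglobulin genes these ratios were 1.07, -0.96 and -0.52, and thus kept their signs. Rps24 (0.37), Rps21 (0.26) and Rpl37a (0.37) were higher and Rpl28 (-0.40) lower in this class, among the 13 higher and 35 lower members.

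In the Rag1 class, Rpl23a and Rps14 were higher (0.58 and 0.55), while Rps27, Rps27rt and Rps24 were lower (-0.26, -0.25 and -0.17). The Cst3 class had more Rps27l (0.29), Rpl10 (0.20) and Rpl36al (0.16) and less Rpl22l1 (-0.43), Rpl36a (-0.40) and Rps15a (-0.39). Rps15a was in turn the member with the highest ratio in the Ikzf2 class (0.29), followed by Rps19bp1 (0.25) and Rpl22l1 (0.21), and Rpl36al had the lowest (-0.22). In the remaining cells, Rpl15 (0.24) and Rps14 (0.23) were higher and Rps27 (-0.14) lower. Several of these directions reversed under other settings. At 3000 to 5000 UMIs, Rpl10 in the Cst3 class was at -0.070 and Rps14 in the remaining cells at -0.012. With class limits of 1 UMI, Rpl22l1 (0.18) and Rpl36a (0.10) reversed in the Cst3 class. So did Rps19bp1 (-0.12) and Rpl22l1 (-0.012) in the Ikzf2 class, and Rps27 (0.10) in the remaining cells. Rpl10 is given here without its copy Rpl10-ps3.

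**Figure D5:**
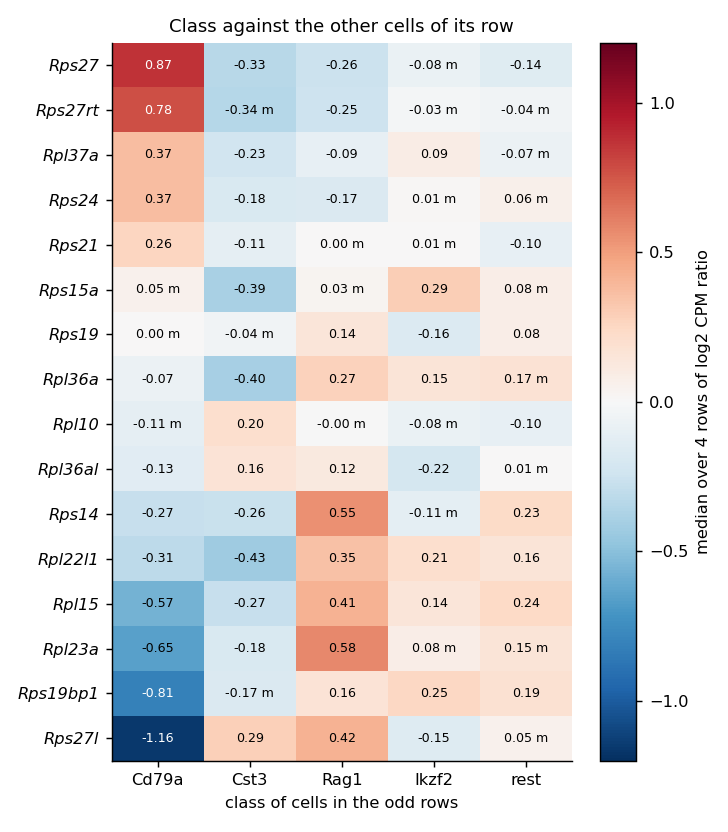
Log2 ratio of CPM in a class to CPM in the other cells of the same odd row, as the median over 4 rows (color and number), for 16 members, ordered by the Cd79a class. The letter m marks ratios whose sign was mixed over the rows. The Cd79a column runs from 0.87 for Rps27 to -1.16 for Rps27l, and the other columns span less.

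Finally, the even rows were compared with each class of the odd rows in turn. The classes were not pure, and the immunoglobulin UMIs of the Cd79a class lower the CPM of its other genes. Depth was not matched here either. Median UMIs per cell were 3258 to 3804 in the even rows, 9963 to 11425 in the Cst3 class and 3685 to 15274 in the Rag1 class. The part of depth in the counts that follow was not tested. Members higher and lower in the even rows numbered 47 and 1 against the Cd79a class, where 39.5% and 13.7% of all genes were. They numbered 61 and 8 against the Cst3 class (32.6% and 33.5% of all genes), 37 and 29 against the Rag1 class (32.0% and 41.9%), 51 and 16 against the Ikzf2 class (22.8% and 46.0%), and 44 and 14 against the remaining cells (24.8% and 41.4%). The median log2 ratio of members ran from 0.36 against the Cst3 class to 0.08 against the Rag1 class. Against the Rag1 class, the small subunit core had 18 higher and 8 lower of 31, and the large subunit core had 17 and 17 of 46.

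At unmatched depth, 29 of 85 members, or 34.1%, were higher in the even rows than in each of the 5 classes. None was lower than in each. Over the 6437 genes tested in every one of these comparisons, 13.8% were higher and 3.09% lower than in each class. The 29 included Rps27, Rps24, Rps21, Rps7, Rpl37a, Rpl38, Rpl12, Rpsa and Rpl13. Rps27 in the even rows, at 1890 CPM or more, exceeded its highest value in any class, 1739 CPM in the Cd79a class of row 13. For Rps27l, the even rows at 116 to 145 CPM overlapped the Cd79a class at 144 to 182 CPM and lay below the other classes, which had 285 CPM or more.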

How the data were processed

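The deposited counts are raw UMIs of each gene and hashtag in each barcode, which the authors made with Cell Ranger 6.0.0 and the mouse genome mm10. They cover barcodes called as cells, before the study's own filters, and neither the labels nor the methods name the release of the annotation. The study left ribosomal genes out of its own analysis.

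Barcodes with at least 1000 genes, at most 5% mitochondrial UMIs, at least 10 UMIs on hashtag rows 11 to 18 and at least 80% of these on 1 row were kept. Barcodes of mixed hashtags were thereby removed, doublets of 1 hashtag were not, and free RNA was not corrected. UMIs were summed per row, or per row and class of at least 20 cells, and divided by the gene UMIs of these cells to give CPM or a share. Single values carry exact Clopper-Pearson or Poisson intervals at 95%, which cover counting error only. No source pairs rows with populations, so rows were not taken as replicates of a labeled group, and no p-value was computed. Genes under a mean of 20 CPM in both sets compared were not counted.

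Named were the 5 members with the highest and the 5 core members with the lowest CPM, the 8 with the highest and 8 with the lowest even to odd ratio, paralog pairs, 7 genes with known roles, and, per class, the 3 with the highest and 3 with the lowest ratio. Rps24, Rps21 and Rpl28 in the Cd79a class, and cells with under 10% ribosomal UMIs and immunoglobulin genes, were chosen after their values were seen. Some genes that this rule names are not reported here. The members and lists were chosen with earlier results of these data known. Transcripts and positions were from GENCODE M21 (GRCm38), start sites from RefSeq (GRCm38.p6). The counting step was tested on simulated data. Python 3.11.15, numpy 2.4.6, scipy 1.17.1 and pandas 2.3.3 were used.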

Additional observations from a re-analysis of the deposited data

Results flagged for a closer look

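Values of the 4 odd rows, of the 4 even rows or of a class were examined for 1 row far from the rest. Classes were taken in the 4 odd rows. In 77 sets of 4 rows, 9 were found. Most sets are genes of the same rows and share cells and a denominator. The sets are thus not independent, and the 9 cannot be set against a chance rate. In 7 of the 9, the row was row 11. Its ribosomal share of 18.1% lay below the 20.0 to 20.4% of the other odd rows, and its Rag1 class, of 72 cells, had 20.6% against 22.5 to 22.8%, at a median of 3685 UMIs per cell against 14409 to 15274 in the other odd rows. The part of depth in that value was not tested. Row 11 was also low in Rpl11 (3146 CPM against 3562 to 3638 in the other odd rows), Rpl13 (5566 against 6191 to 6309), Rpl22 (1298 against 1419 to 1429), Rpl36a (924 against 1088 to 1107) and Rpl7 (1392 against 1617 to 1662). Immunoglobulin genes took 4.99% of the UMIs of row 11 and 0.398 to 3.71% in the other odd rows, and its share without them was 19.0% against 20.3 to 20.9%.

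In the even rows, Rpl31 was high in row 16 with 551 CPM against 509 to 514 CPM, where the counting interval of row 16 is 521 to 582 CPM, and Rps4x was low in row 18 with 5106 CPM against 5465 to 5503 CPM.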

How the results depend on the processing

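The 70 values above were recomputed under other settings, which gave 1186 values. Of these, 902 stayed within the spread between rows or, for counts of members, within a fixed ratio to the main count. Another 267 moved beyond these limits, and 17 reversed a difference that all rows had shown. Of 1148 log2 ratios and share differences, 1091 kept their sign and 57 changed it, differences with mixed rows included. The ribosomal share of even minus odd rows stayed above 0 throughout and was 5.21 points with at most 4000 genes per cell and 7.65 points with 3000 to 5000 UMIs, where 77 members were higher, 1 was lower, and Rpl10 (0.18), Rpl36al (0.33), Rpl7a (0.13) and Rps25 (0.21) reversed. Lower members numbered 5 without ribosomal and mitochondrial UMIs in the denominator. Within ribosomal UMIs alone, 31 were higher and 42 lower, and Rplp2 reversed to -0.027. Leaving out 1 row at a time gave 51 to 53 higher and 9 to 19 lower members, the 19 without row 11, and even minus odd differences of 3.48 to 4.32 points.

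Class shares moved more. Against the other cells of the row, the Cd79a class (-1.15 points) turned to 1.67 at a hashtag purity of 95%, 2.98 with equal weight per cell, 4.88 with 3000 to 5000 UMIs, 1.90 without cells under 10% ribosomal UMIs, 2.35 without immunoglobulin genes, both chosen after seeing the data, and 2.03 without cells that met 2 or more class rules. The Cst3 class (-2.51) was then at -3.04, -1.68, -6.09, -3.57, -3.31 and -3.79 in the same order, at -1.55 with 500 genes and 10% mitochondrial UMIs allowed, and at 1.33 with class limits of 1 UMI. The Rag1 class (2.96) was at 2.46 with 500 genes, 1.88 with at most 4000 genes, 1.68 with equal weight, 2.55 without cells under 10%, 2.38 without immunoglobulin genes, 0.025 with limits of 1 UMI and 2.36 without cells of 2 or more rules. The Ikzf2 class (0.146) was at -1.48 with limits of 1 UMI. The remaining cells (1.59) were at 0.403 with 500 genes, -0.718 with equal weight, -1.69 with 3000 to 5000 UMIs and -0.681 with limits of 1 UMI. Leaving out 1 row gave -1.91 to -0.384, -2.59 to -2.42, 2.77 to 3.15, -0.327 to 0.619 and 0.971 to 2.21 points for the Cd79a, Cst3, Rag1, Ikzf2 and remaining cells. Single genes reversed at 3000 to 5000 UMIs (Rpl10 -0.070 in Cst3, Rps27l 0.14 in Ikzf2, Rps14 -0.012 in the remaining cells) and with limits of 1 UMI (Rpl22l1 0.18 and Rpl36a 0.10 in Cst3, Rps19bp1 -0.12 and Rpl22l1 -0.012 in Ikzf2, Rps27 0.10 in the remaining cells). The cause of these moves was not tested.

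No paired analysis was possible because no label pairs a hashtag row with a population or replicate number. Depth was about 2 times higher per cell in the odd rows, and classes set by UMI numbers select for depth, so that shares of classes at unequal depth are not comparable beyond the values given.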

Other observations

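Mitochondrial ribosomal protein genes had medians of the same sign as the cytosolic set in all 5 classes, and so had all genes tested, with -0.51 in the Cd79a, -0.17 in the Cst3, 0.09 in the Rag1, 0.18 in the Ikzf2 class and 0.15 in the remaining cells. The mitochondrial and cytosolic medians were close in the Cst3 class (-0.17 and -0.18) and the Ikzf2 class (0.07 and 0.01), and 0.23 and 0.11 in the remaining cells. In the Cd79a class, 72 of 78 such genes were lower than in the other cells in all 4 odd rows and none was higher (59.1% and 15.0% of all genes), with a median log2 ratio of -0.76, while the median of the cytosolic members was -0.11. In the Rag1 class, 68 of 78 were higher and none was lower (38.2% and 28.6% of all genes), with a median of 0.44 against 0.21 for the cytosolic members. Mitochondrial ribosomal proteins took 0.904 to 0.972% of UMIs in the Rag1 class and 0.415 to 0.571% in the Cd79a class, and the even rows, at 0.515 to 0.557%, lay inside the range of the latter.

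Coding length and the even to odd ratio of the 77 core genes were weakly related over genes, which are not independent replicates, with a Spearman rho of -0.23. The median log2 ratio was 0.32 among the shortest 26, 0.23 among the middle 25 and 0.17 among the longest 26 genes by coding length.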
